A study of Homo sapiens with 29 samples.

Results

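The siRNA arm of the series measured total RNA of HEK293 cells, a human embryonic kidney cell line, and is described here with same-numbered libraries set against each other. It holds 8 of the 29 samples: 4 libraries of cells given siRNA against hnRNPA1 and 4 of cells given control siRNA. The other 21 samples are RNA immunoprecipitations and enter below through the deposited window lists alone. Both groups share the cell line and the culture medium. The labels give no dose, no time after transfection, no further siRNA and no rescue, so an effect of losing hnRNPA1 and an off-target effect of the siRNA cannot be told apart. The labels number the libraries 1 to 4 in each group without saying what a number stands for. The pairing of control library 1 with knockdown library 1, and so on, is therefore an assumption, and the fit uses that number as a block. The labels do not say whether the libraries of a group are separate cultures, and p-values then cover the spread of these libraries alone, which may be technical. In total RNA of a culture, fewer cells of a kind and less RNA per cell cannot be told apart.

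The values are the authors' normalised reads per gene, that is, reads assigned to a gene and scaled by a factor for each library. Sums over genes ran from 17968459 (knockdown library 4) to 20935045 (control library 1) normalised reads. Of the 16382 genes in the table, 15267 had at least 10 normalised reads in at least 4 libraries and were tested. HEK293 markers fit the label: all 11 of a list of 11 (such as PAX2, VIM and NEFL) were tested, and they summed to 20021 to 21090 normalised reads in the control and 19398 to 20552 in the knockdown libraries. EYA1 was the single HEK293 marker that passed the test, with a log2 fold change of -0.50. Of 7 fibroblast markers, 4 were tested, summing to 213 to 232 normalised reads in control and 210.2 to 240.4 in knockdown libraries. A single member each of the endothelial and of the lymphocyte and myeloid lists was tested, with sums of at most 26.6 and 12.2. No marker of these 3 lists passed the test. CD68, a lysosomal protein that also serves as a myeloid marker and is not on them, was at 2.55, 3.25, 3.84 and close to 0 normalised reads in the controls and 12.8, 17.9, 17.4 and 19.8 after knockdown; it was tested through its knockdown libraries alone, so no test is given, and it was chosen after its values were seen.

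hnRNPA1 is an abundant nuclear RNA-binding protein that coats new transcripts, often silences exons against SR proteins, and shuttles to the cytoplasm, where it takes part in translation and mRNA turnover. Its closest relatives are hnRNPA2/B1 and hnRNPA3, which bind similar sequences, and the hnRNP proteins are known to regulate each other's transcripts. A gene's total level can move through splicing that sends an mRNA to decay, through transcription or through stability, and these routes are not separated by a value per gene.

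HNRNPA1 (ENSG00000135486.19, on chromosome 12), the target of the siRNA, was measured at 18637, 20403, 18614 and 19348 in the control and 6506, 6413, 7185 and 5306 in the knockdown libraries, in the order of their numbers. The groups lie far apart, and knockdown library 4 is the lowest. Within the assumed pairs 34.9, 31.4, 38.6 and 27.4% of the control level remained, and the paired fit gave a log2 fold change of -1.61 (SE 0.09, limma adjusted p = 2.4e-06). Reads of HNRNPA1 and of its near-identical copies in the genome could be exchanged in counting.

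With the replicate number as a block, 1191 of the 15267 genes (7.8%) passed an adjusted p under 0.05 in limma. Of these, 605 (3.96%) were higher and 586 (3.84%) lower in the knockdown, and these shares are the background for each list below. The changes were small. Their median size was 1.27-fold, 142 exceeded 1.5-fold (65 higher, 77 lower) and 33 exceeded 2-fold (16 higher, 17 lower). Over all tested genes the median log2 fold change was 0.0039 and 50.8% lay above 0. The 4 differences within pairs had the same sign for 1163 of the 1191, while 16.2% of all tested genes were higher and 15.7% lower in all 4 pairs. For 383 of the genes called higher and 433 of those called lower the 2 groups of libraries did not overlap, which held for 5.69% and 5.95% of all tested genes. The calls were made on these same values, so the counts of shared sign and of no overlap follow in large part from the calls. Called genes had a median mean level of 682 (higher) and 706 (lower) normalised reads, against 328 over all tested genes.

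How many genes pass depends on the pairing. Without a block 252 genes passed (1.65% of those tested; 103 or 0.675% higher, 149 or 0.976% lower), and all 252 are among the 1191. With numbers 1 and 2 as 1 block and 3 and 4 as the other, 882 passed (5.78%; 430 or 2.82% higher, 452 or 2.96% lower), of which 873 are among the 1191. Leaving out a pair gave 732 genes without pair 1, 287 without pair 2, 804 without pair 3 and 379 without pair 4. Of the 1191, 186 passed in each of these 4 fits, 148 of them also without a block, and 268 passed in none of the 4. With libraries scaled to the same total over genes that are not mitochondrially encoded, 464 passed (208 higher, 256 lower), all among the 1191. An exact two-sided test that flips the signs of the 4 differences of 1 gene cannot go below p = 0.125. Every call therefore rests on the model of limma, which combines the gene's own spread with the spread shared across genes.

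**Figure D1:**
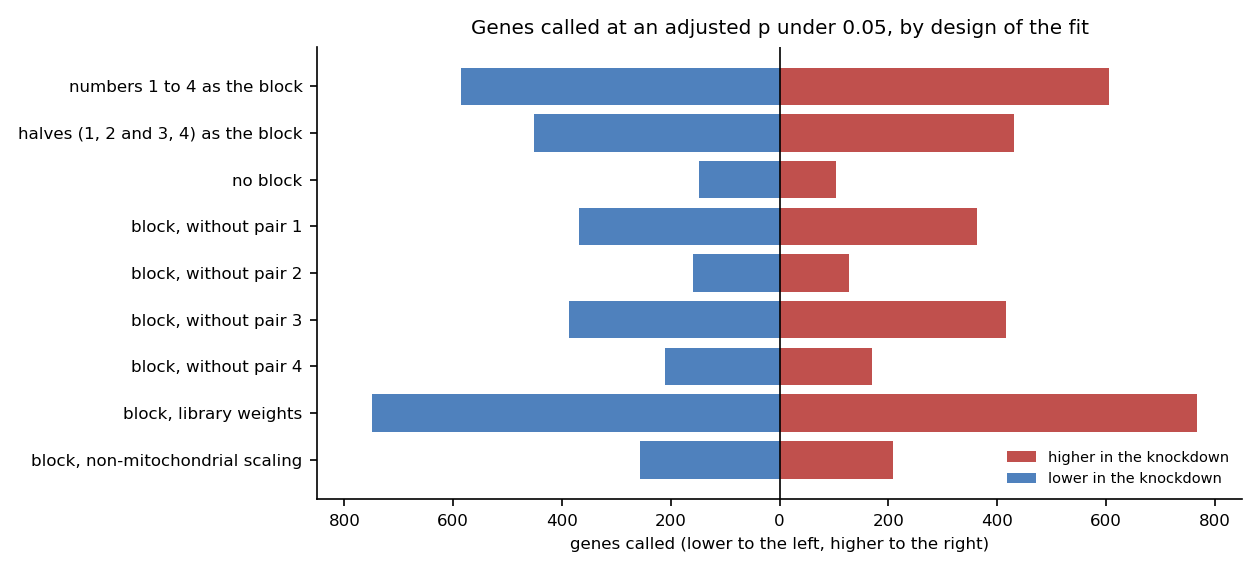
Number of genes called at an adjusted p under 0.05 (horizontal axis, lower in the knockdown to the left and higher to the right) for 9 designs of the fit (rows). The top bar is the paired fit with 605 genes higher and 586 lower; without a block 103 and 149 passed, and without pair 2 it was 127 and 160.

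Gene lists by function were compared by how many tested members passed and by their median. Of the 93 lists, 47 had more members called higher than lower, 35 more lower than higher, and 4 had none called. A signed value in brackets after a gene is its log2 fold change in the paired fit, and series of 4 values are normalised reads in the order of library numbers 1 to 4. Together they hold 5178 tested genes, of which 495 (9.56%) were called, and 696 called genes are in no list. Among lists with at least 6 called members, the tRNA synthetase and ATF4 lists had the largest shares called higher. Protocadherins are left out of that ranking, since 1 of their 7 genes called higher reached the minimum of 10 through the knockdown group. The largest shares called lower were those of the lists of respiratory complexes IV and I. Some lists below have shares called near or under the 7.8% of all tested genes, and their counts mark no change of the list. These counts rest on the pairs. Of the 89 lists with a called member, the count fell by over 1.5 times in 83 without a block, in 37 without pair 1, in 83 without pair 2, in 30 without pair 3 and in 75 without pair 4, and it grew by over 1.5 times in 5, 0, 2 and 1 without pairs 1 to 4. Counts given below as without pairs 1 to 4 come from 4 fits, each with a single pair left out, in that order.

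**Figure D2:**
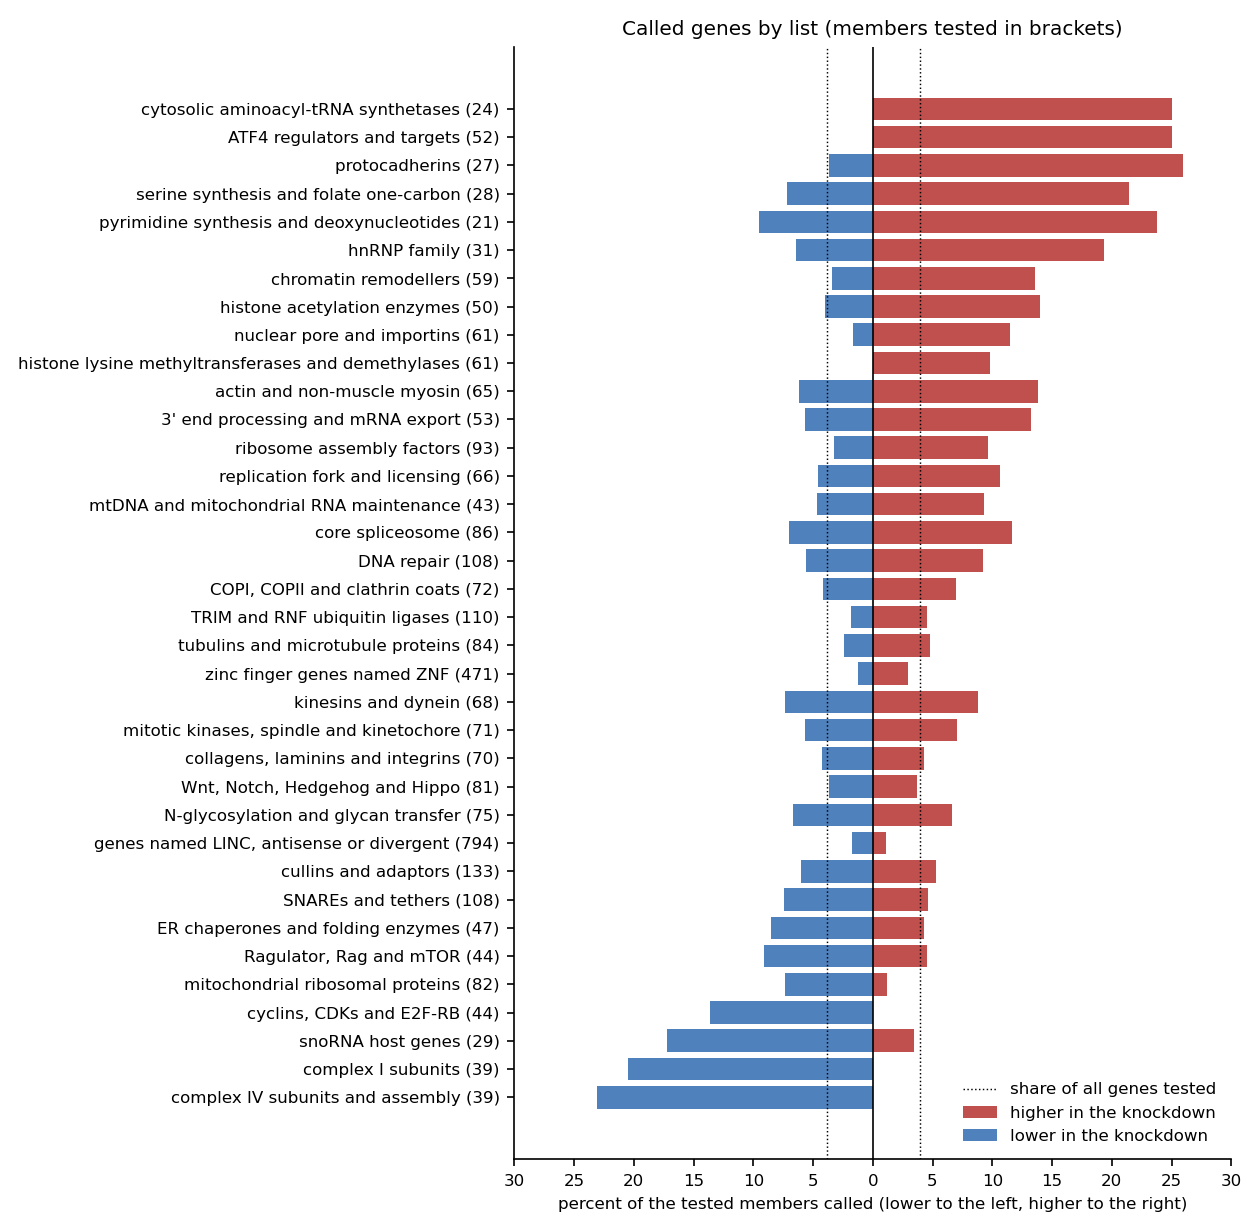
Percent of the tested members of each list called lower (blue, left) or higher (red, right) in the knockdown, for lists with at least 6 called members, of which 1 is not shown; the number of members tested is in brackets and dotted lines mark the 3.96% and 3.84% of all genes tested. Complex IV and complex I lists have bars to the left alone, and tRNA synthetase and ATF4 lists to the right alone. The protocadherin and N-glycosylation bars each count 1 gene called higher with a control mean under 10.

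Among the hnRNP proteins, 6 of 31 tested members rose and 2 fell, HNRNPA1 and its copy HNRNPA1L3 (-1.43), with a list median of 0.12. HNRNPH3, a splicing regulator of the hnRNP H/F group, had 1314, 1242, 1688 and 1518 normalised reads in control libraries and 3120.4, 2368, 3028 and 2547 in knockdown libraries. Every knockdown library lay above every control library, with a log2 fold change of 0.94 (SE 0.08, limma adjusted p = 1.2e-04). The 2 closest relatives of the target also rose. HNRNPA2B1 went from 14078, 14917, 17077 and 17799 to 24659, 18040, 27813 and 20140 normalised reads, by number, with a log2 fold change of 0.49 (SE 0.11, limma adjusted p = 0.023; 0.078 without a block). Knockdown libraries 1 and 3 were the highest, and library 2 lay just above the top control. HNRNPA3 stood at 2950.1, 2934, 3939 and 3286 in control libraries and 4401, 3415, 4918 and 4553 in those of the knockdown (log2 fold change 0.40, limma adjusted p = 0.0087; 0.099 without a block). Its groups overlap through control library 3 and knockdown library 2, while each knockdown library exceeded the control of its own number. HNRNPUL1, an hnRNP U-like protein, likewise rose in every pair although the groups overlap, from 4691, 4789.6, 5109 and 5693 to 5506, 5905, 6211 and 7182, with a log2 fold change of 0.29 (limma adjusted p = 0.021). HNRNPK and HNRNPU had log2 fold changes of 0.12 and 0.22 and did not pass. Without a block HNRNPH3 was the only hnRNP gene called higher, and without pairs 1 to 4 it was 3, 3, 5 and 3 genes. The hnRNP median was 0.22 in pair 1 and 0.08 in pair 4. Over this list control library 1 deviated from the mean of the 8 libraries by a median of -0.15 on the log2 scale. The part of that library in these counts was not tested beyond leaving its pair out.

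**Figure D3:**
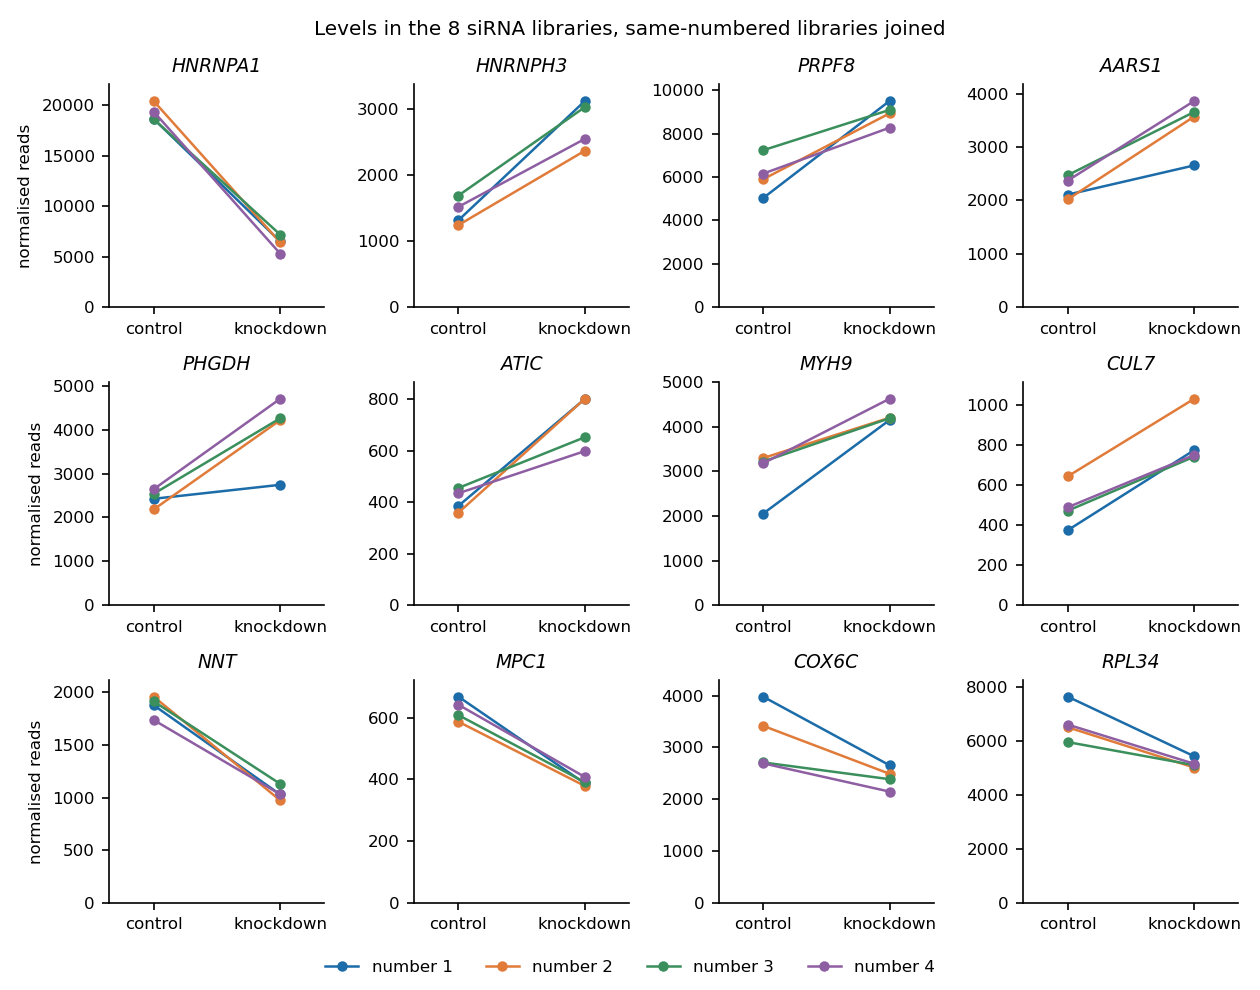
Normalised reads (vertical axes, from 0) of 12 genes in control and knockdown libraries, with libraries of the same number joined by a line; each colour is a number from 1 to 4. HNRNPA1, NNT and MPC1 fall steeply in all pairs, HNRNPH3 and ATIC rise in all pairs, PHGDH rises least in pair 1, and COX6C has its highest control in library 1.

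In the core spliceosome, 10 of 86 tested members rose and 6 fell, with a median of 0.01. PRPF8, which holds the catalytic centre of the spliceosome, was at 5023, 5894, 7230.2 and 6151 in the controls and 9502, 8930.4, 9091 and 8271 after knockdown (log2 fold change 0.57, SE 0.09, limma adjusted p = 0.0050). Every knockdown library exceeded every control, with the widest gap in pair 1. PRPF19, a ubiquitin ligase that activates the spliceosome, had 490.1, 636, 626 and 648 against 817, 829, 844 and 794 normalised reads, and its groups do not overlap (log2 fold change 0.46, limma adjusted p = 0.0073). SF3A1 and SART1 rose by 0.34 and 0.42 on the log2 scale. Among the 6 that fell, LSM3, SNRPE, SF3B6 and the helicase DDX46 had log2 fold changes of -0.37, -0.29, -0.28 and -0.35. LSM3, part of the ring around U6 RNA, stood at 2282, 2058, 1905 and 2064 in control libraries and 1657, 1528, 1617 and 1626 in those of the knockdown, without overlap. Without a block 2 members of the list passed as higher and 1 as lower; without pairs 1 to 4 it was 6, 4, 8 and 6 higher and 4, 1, 5 and 2 lower.

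Of the SR proteins and their partners, which commonly oppose hnRNPA1 at exons, 1 of 30 tested rose and 2 fell (median 0.03). That is 10% called, against 7.8% of all tested genes. Without pairs 1 to 4 the list had 0, 0, 1 and 0 rises and 5, 1, 1 and 1 falls, and without a block 0 and 1. The largest fall was that of RSRP1, an arginine- and serine-rich protein, which went from 840.4, 694, 689 and 652 to 526, 473, 306 and 296, by number (log2 fold change -0.88, SE 0.10, limma adjusted p = 9.1e-04). All knockdown libraries were below all controls, libraries 3 and 4 most of all. RSRP1 is also 1 of the 3 genes that fell among 33 tested nuclear-retained long RNAs, beside LUC7L3 (-0.60) and GOLGA8A (-0.53). That list had medians of 0.15 and 0.06 in pairs 1 and 2 and of -0.57 and -0.32 in pairs 3 and 4, and the mitochondrially encoded mRNAs were likewise low in knockdown libraries 3 and 4; the part of this in the result was not tested. In the list of the exon junction complex and nonsense-mediated decay, which clears mRNAs with early stop codons, 4 of 20 rose: UPF1, its core helicase (0.38), SMG6, its endonuclease (0.38), SMG9 (0.38) and RNPS1 (0.24). MAGOHB, a core subunit of the exon junction complex, fell (-0.39). None of the 4 rises passed without a block, and without pairs 1 to 4 the list had 3, 1, 3 and 0 rises. Control library 1 deviated from the mean of the 8 libraries by a median of -0.16 over this list. Of 53 genes of 3' end processing and export, 7 rose, among them the cleavage factors CPSF1 (0.42), CPSF7 (0.33), CPSF4 (0.32) and the scaffold SYMPK (0.37), and 3 fell, among them INTS6L (-0.55). Without pairs 1 to 4 the rises came to 4, 0, 5 and 1 and the falls to 3, 1, 1 and 0. Among the Argonaute and microRNA processing genes AGO3 fell (-0.68) while AGO2 (0.34) and AGO4 (0.40) rose. RBM3, an RNA-binding protein that responds to cold, fell by 0.58 on the log2 scale (limma adjusted p = 0.0012).

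Regulators and targets of ATF4, the transcription factor through which cells answer amino acid shortage and other stress, moved in 1 direction where they passed. Of 52 tested members of the list, which holds ATF4 itself, 13 rose and none fell. At an unadjusted p under 0.05 in limma it was 31 in both directions together, beside 3914 of all 15267 tested genes. The list median was 0.28, and 47 of 52 members lay above 0. The 4 genes shown next have the C/EBP-ATF response element, the sequence that ATF4 binds with C/EBP partners, in the window from 250 bases before to 50 after their start (RefSeq, GRCh38.p14). They are shown because, of the 6 genes of the ATF4, serine and tRNA synthetase lists that rose and hold the letters TGATGNAAN on either strand, they have the smallest adjusted p; capitals mark the match, and each line reads 5′ to 3′ on the gene's strand. The search covered the whole window of 300 bases, and no printed stretch goes past base 30 after the start.
AARS1: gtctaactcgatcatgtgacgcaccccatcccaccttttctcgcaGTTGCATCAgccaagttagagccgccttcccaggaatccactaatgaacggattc
SLC1A5: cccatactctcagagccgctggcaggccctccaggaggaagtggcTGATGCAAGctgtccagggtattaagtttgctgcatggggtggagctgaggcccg
SLC7A1: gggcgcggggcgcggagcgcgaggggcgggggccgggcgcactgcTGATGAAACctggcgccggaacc
MARS1: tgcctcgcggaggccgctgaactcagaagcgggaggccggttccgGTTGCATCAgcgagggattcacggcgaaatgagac

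The stretch of AARS1 is chr16:70289640-70289739 and that of SLC1A5 chr19:46784857-46784956, both on the minus strand. SLC7A1 is shown at chr13:29595659-29595726 on the minus strand and MARS1 at chr12:57488018-57488097 on the plus strand. In AARS1 and MARS1 the letters stand on the opposite strand, as GTTGCATCA. For SLC1A5 the match lies in 1 of its 3 windows. Counted from the start of the window's transcript, the matches begin at -188 in AARS1, -97 in SLC1A5, -5 in MARS1 and 8 in SLC7A1. Windows were found for 11323 of the 15267 tested genes, and 2.72% of these genes have a match. In the ATF4, serine and tRNA synthetase lists together, 18 of 66 genes with a window have a match (27.3%). Among the members called higher it is 6 of 14, and among those not called 12 of 51. Over all genes with a window it is 18 of 491 called higher (3.67%) and 9 of 480 called lower (1.88%). The lists were chosen by function, targets of ATF4 among them, so their share of matches is not a result of the knockdown. A match describes the letters alone and no binding was measured.

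AARS1, the cytosolic alanyl-tRNA synthetase, was at 2108, 2019, 2472 and 2370 normalised reads in control libraries and 2656, 3571, 3657 and 3862 in knockdown libraries. The groups do not overlap, and knockdown library 1 rose least (log2 fold change 0.61, SE 0.08, limma adjusted p = 0.0016; 0.018 without a block). MARS1, the methionyl enzyme, had 3246, 2521, 3119 and 2959 without and 3312, 4416, 4004 and 4449 with the knockdown, with the lowest value in control library 2 (log2 fold change 0.45, limma adjusted p = 0.021). The groups of MARS1 come close, since control library 1 almost reached knockdown library 1. YARS1, the tyrosyl enzyme, also had its lowest value in control library 2, with 2936, 2241, 2925 and 2868 in control and 3041, 3807, 4043 and 4521 in knockdown (log2 fold change 0.48, limma adjusted p = 0.013). In all, 6 of 24 cytosolic synthetases rose and none fell, VARS1 (0.31) among them, with a median of 0.18. The ATF4, serine and tRNA synthetase lists share members, so their counts are not separate. Together they hold 86 tested genes, of which 18 rose. Without pair 1 the cytosolic list had 9 members called higher and 1 lower, without pair 2 or pair 4 it had 1 higher, and without a block 2. Of the 20 mitochondrial synthetases 1 rose, SARS2 (0.32).

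PHGDH, SHMT2 and some amino acid carriers rose as well. PHGDH, which starts serine synthesis from a glycolytic intermediate, stood at 2427, 2183, 2539.8 and 2644 in the controls and 2746, 4224, 4266 and 4711 after knockdown (log2 fold change 0.68, SE 0.10, limma adjusted p = 0.0036). Knockdown libraries 2 to 4 lay well above the controls and library 1 only a little. SHMT2, which passes the one-carbon unit of serine to folate in mitochondria, had 3798, 3588, 4093 and 4090.2 under control siRNA and 3864, 5723, 5685 and 7281 under hnRNPA1 siRNA, with overlap through knockdown library 1 (log2 fold change 0.50, limma adjusted p = 0.016; 0.090 without a block). Of the 28 genes of serine and folate metabolism 6 rose and 2 fell, the latter GCSH (-0.27) and GGH (-0.26). This list had 7, 1, 4 and 3 rises and no falls without pairs 1 to 4, and without a block 2 rises and no falls. MAT2A, which makes S-adenosylmethionine, rose by 0.38 on the log2 scale. Of the amino acid carriers in the ATF4 list 3 passed. SLC1A5, a glutamine carrier, was at 2394, 2419, 3030.1 and 2798 in control libraries and 2991, 3900.5, 3433 and 4189 in those of the knockdown (log2 fold change 0.44, limma adjusted p = 0.010). SLC7A1, the arginine carrier, had 795, 594, 1201 and 898 in the controls against 931, 1063, 1319 and 1582 after knockdown (log2 fold change 0.50, limma adjusted p = 0.019). In both, control library 3 reached into the range of the knockdown libraries, and the groups overlap. SLC7A5, the leucine carrier, went from 598, 407, 860.2 and 677 to 566, 856, 1002 and 1519.5, by number, and was higher in 3 of 4 pairs (log2 fold change 0.59, SE 0.16, limma adjusted p = 0.044; 0.22 without a block). Pair 1 ran the other way.

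The pairs differed in the ATF4 list. Its median difference was -0.10 in pair 1, 0.61 in pair 2, 0.21 in pair 3 and 0.53 in pair 4. Without pair 1, 31 of the 52 members passed as higher; without pair 2 or without pair 4 it was 2 each time, and without a block 3. ATF4 itself had 11945, 9996, 10795 and 11725 in the controls and 10776, 12746, 12654 and 12840 after knockdown and did not pass (log2 fold change 0.14, limma adjusted p = 0.35). Nor did ASNS, the asparagine synthetase, at 4254, 1894, 3553 and 3139.6 without and 3310, 5103, 5167 and 6108 with the knockdown, by number (log2 fold change 0.64, limma adjusted p = 0.061). Control library 2 is the lowest of the 8 for ASNS and control library 1 exceeds knockdown library 1. TRIB3 (0.59), DDIT3 (0.36), PSAT1 (0.36), PSPH (0.28), MTHFD2 (0.32) and CHAC1 (0.28) had positive log2 fold changes and did not pass. Over the list, control library 2 deviated from the mean of the 8 libraries by a median of -0.38 on the log2 scale and knockdown library 4 by 0.41.

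**Figure D4:**
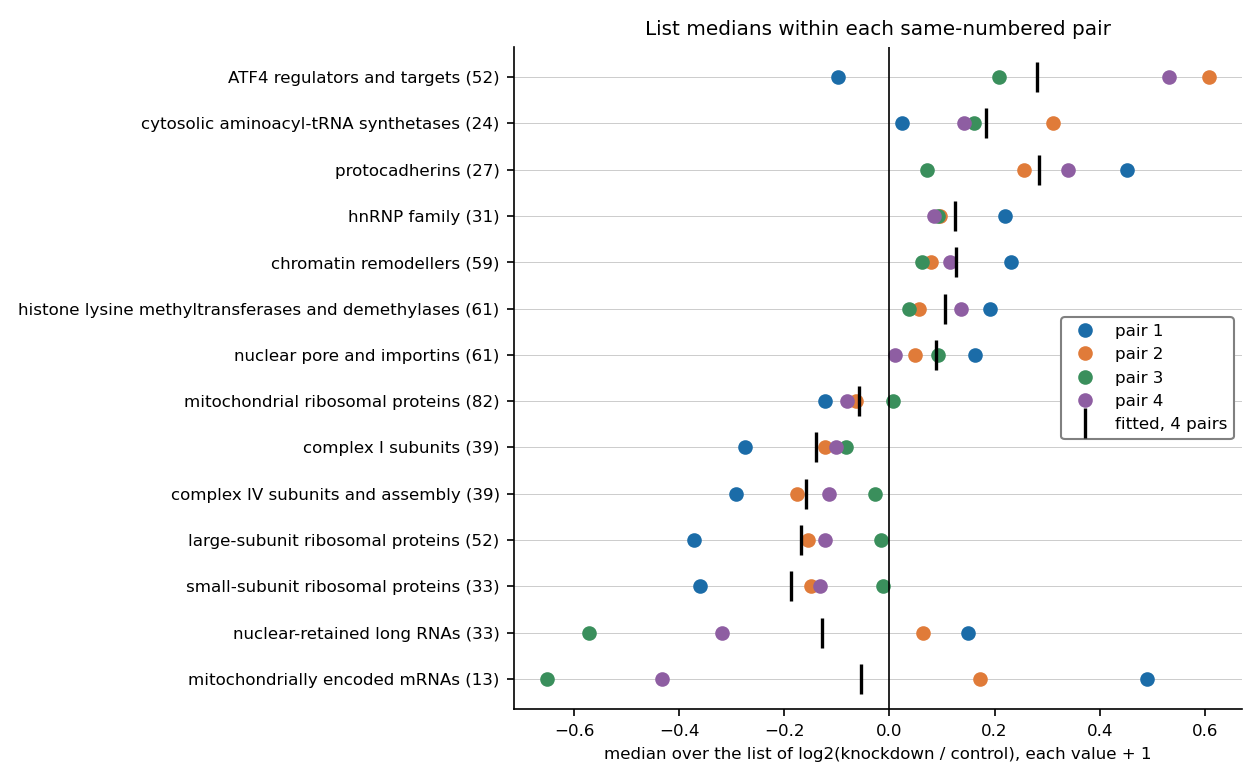
Median over the members of 14 lists (rows, members tested in brackets) of the log2 ratio of knockdown to control, within each same-numbered pair (coloured points) and in the paired fit (black bar). The ATF4 list lies below 0 in pair 1 and above 0 in pairs 2 to 4, the respiratory and ribosomal lists lie lowest in pair 1, and the mitochondrially encoded mRNAs change sign between pairs 1 and 2 and pairs 3 and 4.

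Some genes of nucleotide synthesis rose. ATIC, which carries out the last steps of purine synthesis, was at 385, 358, 455 and 434 normalised reads in control and 801, 801, 652 and 598 in knockdown libraries (log2 fold change 0.80, SE 0.11, limma adjusted p = 0.0021). The groups do not overlap, and knockdown libraries 1 and 2 exceeded libraries 3 and 4. PFAS and APRT rose by 0.38 and 0.29 on the log2 scale, which makes 3 of 25 purine genes, with a list median of 0.01. CAD, which holds the first 3 activities of pyrimidine synthesis, had 668, 666, 1016 and 861 under control siRNA and 1019, 1058, 1211 and 1153 under hnRNPA1 siRNA, and control library 3 came within reach of knockdown library 1 (log2 fold change 0.49, limma adjusted p = 0.0045). Of 21 genes of pyrimidines and deoxynucleotides 5 rose, among them TK1 (0.34), UCK2 (0.26) and RRM2 (0.26), while CMPK1 (-0.30) and DUT (-0.33) fell. Of these 10 genes ATIC alone passed without a block. The purine list had 3, 1, 3 and 1 rises without pairs 1 to 4 and the pyrimidine list 3, 1, 2 and 1.

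Ribosomal protein genes lay mostly below 0. Of 52 large-subunit genes tested, 5 passed as lower and none as higher, with a median of -0.17, and 47 lay below 0. Of 33 small-subunit genes 4 passed as lower and 1 as higher, with a median of -0.19. RPL34 was at 7659.8, 6522, 5971 and 6623 in control libraries and 5443, 5024, 5115 and 5164 in those of the knockdown (log2 fold change -0.36, SE 0.07, limma adjusted p = 0.011). All controls were above all knockdown libraries, control library 1 most. RPS26 had 7752, 6837, 6154 and 6276 in the controls against 6142, 5257, 5099 and 5001 after knockdown, and its lowest control stood just above its highest knockdown library (log2 fold change -0.33, limma adjusted p = 0.013). RPS16 moved the other way, from 5658, 4414, 5406 and 5289 to 9677, 10103, 7298 and 6320.3, without overlap (log2 fold change 0.66, limma adjusted p = 0.0087). It has processed copies in the genome, to which reads could be assigned, and knockdown libraries 1 and 2 were above 3 and 4. The list medians were -0.37 (large) and -0.36 (small) in pair 1 but -0.02 and -0.01 in pair 3. Control libraries 1 and 2 deviated upward from the mean of the 8 libraries, by medians of 0.28 and 0.15 for the large subunit, and their part in the result was not tested. Large-subunit genes called lower without pairs 1 to 4 numbered 2, 0, 5 and 2, and without a block 1; for the small subunit it was 1, 0, 3 and 0, and 0.

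Among initiation factors outside eIF3, 3 of 52 rose and 2 fell. Without pairs 1 to 4 it was 3, 0, 3 and 2 rises and 1, 0, 2 and 0 falls, and without a block 0 and 0. EIF4G1, the scaffold that joins the cap-binding protein to the ribosome, had 3676, 4809.6, 5200.5 and 5272 in the controls and 6866, 6365, 6202 and 6063 after knockdown, with no overlap and the lowest value in control library 1 (log2 fold change 0.44, limma adjusted p = 0.022). EIF1 (0.36) and EIF4H (0.24) rose as well, while EIF2A (-0.34) and MCTS1 (-0.29) fell. Of 14 eIF3 genes EIF3CL (0.74) and EIF3C (0.47) rose; they are near-identical copies between which reads can be split. EIF3E fell (-0.26). Ribosome assembly factors were called higher in 9 of 93 cases and lower in 3, with PES1 (0.29) and TSR1 (0.28) on the higher side. UTP14A (-0.56), UTP18 (-0.30) and WDR75 (-0.27), all of the small-subunit processome, fell, and none of the 9 rises passed without a block. The assembly factors had 1, 1, 5 and 3 rises without pairs 1 to 4. Of 61 tRNA modification genes 4 fell, PUS7L (-0.51), NSUN6 (-0.43), ELP4 (-0.39) and TPRKB (-0.31), and METTL1 rose (0.66).

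Nuclear genes for subunits of the respiratory chain fell or did not pass in the paired fit. In complex I, which feeds electrons from NADH, 8 of 39 tested subunit genes fell and none rose (median -0.14). In complex IV, cytochrome c oxidase with its assembly factors, 9 of 39 fell and none rose (median -0.16). Complexes II and III had 2 of 24 lower, UQCRB (-0.28) and SDHD (-0.27), and the ATP synthase 1 of 21, ATP5MK (-0.33). These are 8.33% and 4.76% called, against 7.8% of all tested genes. Of 19 complex I assembly factors NDUFAF3 rose (0.35), and TMEM70 (-0.34) and NDUFAF2 (-0.27) fell. NDUFA5, a complex I subunit of the matrix arm, was at 2293, 2071, 2143 and 2188 in control libraries and 1888, 1644, 1732 and 1631 in those of the knockdown (log2 fold change -0.34, SE 0.06, limma adjusted p = 0.0087). NDUFS4, needed to finish complex I assembly, had 1149, 952, 897 and 921 without and 846, 803, 749 and 652 with the knockdown (log2 fold change -0.36, limma adjusted p = 0.012). Neither gene has overlapping groups, and control library 1 is the highest library for both. COX6C, a small subunit of complex IV, went from 3983, 3419, 2711 and 2694 to 2657, 2492, 2388 and 2148 (log2 fold change -0.39, limma adjusted p = 0.011; 0.10 without a block). Its controls 3 and 4 stood only just above knockdown library 1, and each knockdown library was below its own control. COX5B, another subunit, had 2044, 1962, 1740.1 and 1835 under control siRNA and 1421, 1486, 1379 and 1627 under hnRNPA1 siRNA without overlap (log2 fold change -0.36, limma adjusted p = 0.011). COX17, which carries copper to complex IV, had 945, 862, 738 and 847 in the controls and 761, 647, 628 and 665 after knockdown, with overlap through knockdown library 1 (log2 fold change -0.33, limma adjusted p = 0.014). NDUFA4 is counted in both lists.

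As for the ribosomal proteins, the respiratory lists were lowest in pair 1, with medians of -0.28 for complex I and -0.29 for complex IV, against -0.08 and -0.03 in pair 3. Control library 1 deviated by 0.21 (complex I) and 0.23 (complex IV) from the mean of the 8 libraries. Without pairs 1 to 4, 5, 1, 8 and 2 members of the complex I list and 5, 0, 9 and 2 of the complex IV list passed as lower, and without a block 1 and 2. In the complex IV list 1 member passed as higher without pair 1 and with library weights, as did 1 of complexes II and III with library weights. The 13 mitochondrially encoded mRNAs had no member called by the paired fit, and at an unadjusted p under 0.05 none either; without pair 1, 1 of them passed as lower. Their medians were 0.49, 0.17, -0.65 and -0.43 in pairs 1 to 4. MT-CO1, for example, had 64946, 73298, 63811 and 58790 in control libraries and 85791, 81356, 40638 and 39731 in those of the knockdown. Knockdown libraries 1 and 2 stood above every control and libraries 3 and 4 below every control.

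Of the other nuclear genes for mitochondrial proteins, NNT and MPC1 fell, and both were lower in each of the 4 pairs. NNT, the transhydrogenase that makes NADPH from the proton gradient, was at 1879, 1959.8, 1914 and 1738 in the controls and 1029, 974, 1130.4 and 1032 after knockdown (log2 fold change -0.85, SE 0.07, limma adjusted p = 7.8e-05). MPC1, which with MPC2 forms the carrier that brings pyruvate into mitochondria, had 668, 587, 608 and 642 in the controls against 387, 379, 391 and 408 after knockdown (log2 fold change -0.68, SE 0.07, limma adjusted p = 4.9e-04). In both genes the groups are far apart and the 4 pairs alike, and both calls held without a block and with each pair left out in turn. MRPL41, of the large mitochondrial ribosomal subunit, went from 694, 702, 559 and 741 to 336, 449, 339 and 597 (log2 fold change -0.68, limma adjusted p = 0.0031). Knockdown library 4 reached above control library 3, and the log2 differences in pairs 1 to 4 were -1.04, -0.64, -0.72 and -0.31. Of 82 mitochondrial ribosomal proteins 6 fell, with MRPL23 (-0.42) and MRPS18C (-0.34) beside MRPL41, and MRPL49 rose (0.27). The list median was -0.06, and 8.54% of its members were called, against 7.8% of all tested genes. Its falls without pairs 1 to 4 numbered 4, 2, 6 and 2, and without a block there were 0. In the tricarboxylic acid cycle SUCLA2 (-0.29), a subunit of succinyl-CoA synthetase, fell and CS (0.22), citrate synthase, rose. LONP1, the matrix protease, rose from 1245, 1209.6, 1454 and 1454 to 1396, 1884, 1830.1 and 2608 (log2 fold change 0.49, limma adjusted p = 0.011; 0.096 without a block), with overlap through knockdown library 1. TWNK, the mitochondrial DNA helicase, rose by 0.39, and SLIRP, which stabilises mitochondrial mRNAs, fell by 0.34 on the log2 scale.

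Among genes that act on chromatin more were called higher than lower. Of 61 histone lysine methyltransferases and demethylases 6 rose and none fell (median 0.11, 49 above 0). Among 50 enzymes and readers of histone acetylation 7 rose and 2 fell, and among 59 chromatin remodellers 8 rose and 2 fell (median 0.13). TRRAP, the scaffold of histone acetyltransferase complexes, stood at 961, 1023, 1508 and 1266 in control libraries and 1953, 1528, 1649 and 1804 in those of the knockdown (log2 fold change 0.56, SE 0.11, limma adjusted p = 0.011). Every knockdown library was above every control, library 2 by little. KDM5C, a demethylase of histone H3, had 2929, 4076, 3644 and 3428 without and 4552, 5418, 4346 and 4755 with the knockdown without overlap (log2 fold change 0.44, limma adjusted p = 0.0052). SMARCC2, a core subunit of the BAF remodeller, had 1041, 1258, 1241 and 1126 under control siRNA and 1469, 1466, 1514 and 1601 under hnRNPA1 siRNA, also without overlap (log2 fold change 0.38, limma adjusted p = 0.0096). BRD8 fell (-0.50), as did HDAC1 (-0.25), SMARCAD1 (-0.32) and SMARCA1 (-0.24). MED12, of the Mediator kinase module, was the single Mediator gene of 33 to pass (0.51). Of 53 replication-dependent histone genes 3 fell and none rose, H2AC25 (-1.04), H2AC21 (-0.51) and H2AC20 (-0.49), with a list median of 0.01. That is 5.66% called, against 7.8% of all tested genes. Without pair 1 no histone gene passed as lower and 3 passed as higher, and without pair 4 the falls numbered 6. Without a block 1 gene of each of the methylation, acetylation and remodeller lists passed as higher. Without pairs 1 to 4 the rises were 5, 2, 7 and 2 for methylation, 5, 2, 5 and 2 for acetylation and 2, 1, 7 and 1 for remodellers. Control library 1 deviated from the mean of the 8 libraries by a median of -0.13 (methylation), -0.09 (acetylation) and -0.16 (remodellers) on the log2 scale. The list medians in pair 1 were 0.19, 0.09 and 0.23, and in pair 3 0.04, 0.03 and 0.06; the part of that library in these counts was not tested beyond leaving its pair out.

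Cytoskeletal genes passed in both directions. Of 65 actin and non-muscle myosin genes 9 rose and 4 fell. MYH9, the non-muscle myosin IIA heavy chain, was at 2051, 3300.4, 3221 and 3182 in the controls and 4155, 4207, 4196 and 4633 after knockdown (log2 fold change 0.57, SE 0.10, limma adjusted p = 0.0064). TLN1, which links integrins to actin, had 1581, 2254, 2307 and 2207 in the controls against 2748, 2945, 2939 and 3077 after knockdown (log2 fold change 0.50, limma adjusted p = 0.0039). MYO18A, an unconventional myosin, had 398, 544, 574 and 573 without and 683, 768, 758 and 841 with the knockdown (log2 fold change 0.56, limma adjusted p = 0.0021). In all of MYH9, TLN1 and MYO18A the groups are apart and control library 1 is by far the lowest, yet the calls held without pair 1. FLNC, a filamin that crosslinks actin, had 219, 199, 294 and 313 under control siRNA and 271, 276, 436 and 463 under hnRNPA1 siRNA (log2 fold change 0.48, limma adjusted p = 0.0087; 0.20 without a block). Its libraries 3 and 4 exceed libraries 1 and 2 in both groups, so the groups overlap while each pair rises. TMSB10 (-0.48), which binds actin monomers, ARPC1B (-0.36) and ARPC3 (-0.25), of the actin-branching Arp2/3 complex, and TPM1 (-0.26) fell. Without pairs 1 to 4 the actin and myosin list had 6, 6, 7 and 6 rises and 2, 1, 2 and 2 falls, and without a block 3 and 0. DYNC1H1, the dynein heavy chain, had 3261, 5452, 5178 and 4481 in control libraries and 6598, 6135, 6200.3 and 6078 in those of the knockdown without overlap (log2 fold change 0.47, limma adjusted p = 0.025; 0.079 without a block). Control library 1 was again the lowest. DYNLL2 and DCTN1 rose by 0.40 and 0.28, while the light chains DYNLT1 (-0.27) and DYNLT2B (-0.48) and DCTN6 (-0.32) fell, so that kinesins and dynein came to 6 higher and 5 lower of 68; without pairs 1 to 4 it was 3, 3, 3 and 1 higher and 1, 0, 4 and 0 lower, and without a block 0 and 0. Among 61 genes of the nuclear pore and nuclear import 7 rose, RCC1 (0.45), IPO8 (0.43), NUP210 (0.40) and RANGAP1 (0.34) with the smallest adjusted p, and 1 fell. Without pair 1, 2 or 3 the list had 6 members called higher, without pair 4 it had 5, and without a block 2.

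In the cell cycle, 6 of 44 cyclins, CDKs and E2F-RB genes fell and none rose. CCND1, cyclin D1, which drives entry into S phase, was at 499.9, 699, 667 and 628 in the controls and 461, 356, 459.7 and 408 after knockdown (log2 fold change -0.56, SE 0.11, limma adjusted p = 0.012). CCNG2, a cyclin linked to cell cycle arrest, had 543, 475, 583 and 502 in the controls against 373, 337, 374 and 372 after knockdown (log2 fold change -0.53, limma adjusted p = 0.0025). The groups overlap for neither. The cyclin list had 4, 2, 4 and 2 falls without pairs 1 to 4, and without a block 3. CCND1 mRNA is a known hnRNPA1 target for translation. It is 1 of 23 tested genes on a list of known hnRNPA1 targets of any kind, of which 3 rose and 1 fell, CCND1 itself. CASP2 (0.32) and RAC1 (0.24) were among the rises. That list had 2, 0, 1 and 0 rises without pairs 1 to 4, and 0 without a block. PKM and MYC, also on the list of these targets, had log2 fold changes of 0.13 and 0.17 and did not pass; exon use of PKM was not analysed here. At replication forks 7 of 66 genes rose and 3 fell. TIMELESS, of the fork protection complex, had 978, 1069, 1214 and 1287 in control libraries and 1704, 1760.5, 1744 and 1581 in those of the knockdown (log2 fold change 0.58, limma adjusted p = 0.0021). Its groups do not overlap, and the gap shrinks from pair 1 to pair 4. The helicase subunits MCM2 (0.30) and MCM5 (0.26) and the histone chaperone CHAF1A (0.34) rose, whereas the kinase CDC7 (-0.34) fell. Rises in the fork list numbered 5, 2, 4 and 2 without pairs 1 to 4, and 1 without a block. Mitotic genes moved both ways, 5 up and 4 down of 71: ESPL1, the separase (0.40), NUMA1 (0.45), TACC3 (0.45) and AURKB (0.35) rose and NUF2 (-0.38), CENPC (-0.33), TTK (-0.30) and CENPW (-0.29) fell. Mitotic rises without pairs 1 to 4 were 4, 2, 4 and 3 and falls 4, 1, 5 and 0. In DNA repair 10 of 108 rose and 6 fell. The largest fall there was XPA, the damage-verifying factor of nucleotide excision repair (-0.82, limma adjusted p = 4.9e-04), while APEX1 (0.41) and MDC1 (0.36) rose; without a block 1 of the falls and none of the rises passed, and without pairs 1 to 4 it was 3, 1, 4 and 1 rises and 5, 1, 2 and 1 falls.

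In protein turnover the cullins and their partners had 7 of 133 higher and 8 lower, and 5, 1, 5 and 2 higher and 6, 2, 6 and 3 lower without pairs 1 to 4. CUL7, a cullin mutated in a human growth disorder, was at 374, 644, 472 and 489 in the controls and 775, 1032, 742 and 751 after knockdown (log2 fold change 0.75, SE 0.08, limma adjusted p = 5.7e-04; 0.027 without a block). Library 2 is the highest in both groups, and the block takes that shared difference out. CUL9 (0.43) and CCDC8 (0.34), which bind to or resemble CUL7, rose too. The COP9 signalosome, which switches cullins off by removing NEDD8, changed unevenly. COPS2 had 2208, 1921, 2034 and 2098 without and 1570.5, 1479, 1499 and 1351 with the knockdown (log2 fold change -0.49, limma adjusted p = 0.0018). COPS5, the catalytic subunit, had 906, 887, 879 and 855 under control siRNA and 742, 704, 669 and 600.2 under hnRNPA1 siRNA (log2 fold change -0.38, limma adjusted p = 0.0081). COPS6, its partner, moved the other way, from 771, 746, 795 and 879 to 968, 942, 1030 and 1058 (log2 fold change 0.33, limma adjusted p = 0.012). The groups do not overlap in any of COPS2, COPS5 and COPS6. At the endoplasmic reticulum HSPA5, the chaperone BiP, had 900.4, 1119, 1151 and 1068 in control libraries and 1956, 1695, 1434 and 1114 in those of the knockdown (log2 fold change 0.52, limma adjusted p = 0.026; 0.077 without a block). It rose steeply in pair 1 and hardly in pair 4, where the knockdown library stayed below control libraries 2 and 3. EDEM1 rose (0.40), and UGGT2 (-0.31) and DNAJC10 (-0.27) were among 4 chaperones of 47 that fell. The translocon and signal peptidase had 5 of 41 lower and none higher, with 3, 0, 3 and 2 lower without pairs 1 to 4 and 1 without a block. SEC61G, a small subunit of the protein channel, had 2435, 2450.3, 2124 and 2101 in the controls against 1922, 1783, 1813 and 1767 after knockdown without overlap (log2 fold change -0.32, limma adjusted p = 0.013), and SEC61B fell too (-0.28). LAMTOR3, which anchors mTORC1 regulators to lysosomes, fell by 0.68 on the log2 scale (limma adjusted p = 0.0013), while SESN2, a leucine sensor and ATF4 target, rose (0.41); MTOR did not pass (0.16).

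Some of the larger ratios were found in adhesion and zinc finger genes of low level. Of 27 protocadherins, adhesion genes expressed from clustered promoters, 7 rose and 1 fell, with a median of 0.28. PCDHGB2, one of the 7, was at 5.12, 9.43, 9.61 and 10.7 normalised reads in control and 24.9, 24.9, 21.6 and 27.9 in knockdown libraries. It reached the minimum of 10 in 4 libraries through the knockdown group, a filter that favours a rise, so no test is given. It alone of the 7 had a control mean under 10, and it is still counted in the 7 and in the list median. PCDH10, outside the clusters, had 134, 134, 158 and 128 without and 196, 181, 220.5 and 246 with the knockdown (log2 fold change 0.60, limma adjusted p = 0.011). The groups of PCDH10 do not overlap, and PCDHGB6 (0.95) and PCDHA10 (0.74) rose as well. Genes of a protocadherin cluster share 3' exons, so reads of 1 gene could be assigned to another. Without pair 2 or pair 4 the list had 2 rises each time, and without a block 4. Of 471 genes named ZNF 14 rose and 6 fell, and without pairs 1 to 4 it was 8, 2, 11 and 4 and 6, 2, 3 and 1. With 4.25% called, the ZNF genes lay below the 7.8% of all tested genes. ZNF347 had 31.5, 31.1, 41.3 and 22.1 in the controls and 78.7, 74.9, 90.2 and 59.5 after knockdown, far apart (log2 fold change 1.26, limma adjusted p = 0.0016). ZNF677 (0.59) rose and ZNF117 (-0.63) fell.

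By type of gene, of the tested genes matched to RefSeq, 89.1% are protein-coding, against 95.6% of those called higher and 94.9% of those called lower. Of 942 lncRNA genes 14 rose and 22 fell. Genes for lncRNAs are 6.56% of the tested genes matched to RefSeq, against 2.36% of those called higher and 3.86% of those called lower. Of 29 host genes of small nucleolar RNAs, whose spliced RNAs are mostly degraded in the cytoplasm, 5 fell and 1 rose, with SNHG19 (-0.57), SNHG8 (-0.35), SNHG10 (-0.35) and TAF1D (-0.30) lower and SNHG32 (0.37) higher; the falls without pairs 1 to 4 were 4, 1, 3 and 3, and without a block 1. TERC, the telomerase RNA, is listed beside a second entry for the same kind of RNA, and both fell (-0.83 and -0.89); reads could be split between them. The called genes were also set beside the deposited lists of windows bound in hnRNPA1 RIP, with no test. A whole-cell window lay in 47.9% of genes called higher, 49.5% of those called lower and 39.2% of all tested genes. For mitochondrial RIP it was 14.2%, 5.63% and 6.39%, and for cytosolic RIP 7.27%, 8.70% and 5.17%. Called genes are more abundant than the rest, and abundance also bears on finding a window; its part in these shares was not tested.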

How the data were processed

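Total RNA of HEK293 cells given siRNA against hnRNPA1 or control siRNA (4 libraries each) was extracted with Trizol and sequenced from stranded libraries, per the labels' protocols. The authors deposited gene values as a signal that is never negative, which fits reads per gene scaled by a factor per library. Many values are not whole reads, so no count test was run. The submitters' processing notes list STAR 2.7.8a, Partek, DESeq2 and the build hg38 without saying what each was used for. The deposited table holds 16382 genes sorted by Ensembl ID, of which 16358 have a symbol; it ends before the last Ensembl IDs, and genes beyond it were not analysed here. The deposited window lists of the RIP arm give a score for each window, and their q-values, which are p-values adjusted by the authors, were not used again; a gene counted as having a window when the window's name holds its ID.

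The 15267 genes that reached 10 in 4 or more libraries were tested in limma 3.58.1 (R 4.3.3) on log2(value + 1), letting the variance follow the mean level, with the replicate number as a block, two-sided, with Benjamini-Hochberg adjustment over all tested genes. Fold changes on this scale understate the change of low genes. The members and the 93 gene lists were chosen with earlier results of these data known, so list counts are descriptions. Named genes are HNRNPA1, the 15 largest rises and 15 largest falls above the median level, up to 4 called members per list and direction with the smallest adjusted p, and the genes of the printed promoters; CHAC1, HNRNPK, HNRNPU, MT-CO1, PKM, MYC and other members given without a call were chosen after their values were seen. Some genes that meet this rule, and 1 list, are not reported here. Alternatives were no block, a block of numbers 1 and 2 against 3 and 4, each pair left out, a pseudocount of 0.1, no filter, a minimum of 100, 2 rescalings and library weights. The fit was tested on simulated data with independent genes and a built-in difference between pairs. That run takes the pairing as given and does not test it. Figures were drawn with matplotlib 3.10.9.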

Additional observations from a re-analysis of the deposited data

Results flagged for a closer look

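Library values that stand apart from the other 3 of their group were looked for in the 52 genes given with all their values, that is, in 104 groups of 4 libraries; the gap to the nearest library had to exceed Dixon's 95% critical value for 4 libraries. Chance flags about 1 in 20 groups, and 8 were found. Control library 1 was low for 4 genes: PRPF19 (490.1 normalised reads), MYH9 (2051), MYO18A (398) and TLN1 (1581). Control library 2 was low for YARS1, at 2241. Knockdown library 4 was high for MYH9, at 4633. Knockdown library 2 was low for CCNG2, at 337, and high for CUL7, at 1032. PRPF19, MYH9, MYO18A, TLN1, CCNG2 and CUL7 were called in each of the 4 fits without a pair, and YARS1 in 2 of them.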

How the results depend on the processing

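The count of changed genes depended on the pairing. It was 1191 (605 higher, 586 lower) with the replicate number as a block and 252 (103 higher, 149 lower) with no replicate block. The pairing was checked by correlating, over tested genes, the deviations of same-numbered libraries from their group means. These correlations were 0.12, 0.29, 0.04 and 0.23 for numbers 1 to 4, and control library 3 correlated better with knockdown library 4 (0.25) than with its own number, so the numbers are not shown to pair the libraries. Leaving out a pair gave 287 to 804 genes (127 to 417 higher, 160 to 387 lower). Scaling to the non-mitochondrial total gave 464 (208 higher, 256 lower). With numbers 1 and 2 against 3 and 4 as the block, library weights, the other rescaling, a pseudocount of 0.1, no filter or a minimum of 100, the count lay between 882 and 1516. HNRNPA1 was called lower under every alternative run, with log2 fold changes from -1.52 to -1.68. No named gene changed direction under an alternative; of the 425 compared, 293 lost their call without a block, 289 without pair 2, 254 without pair 4 and 204 under the non-mitochondrial scaling. Depth is given as scaled sums alone, so counting error per gene is unknown.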

Other observations

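Some families were singled out after their values were seen, so their counts describe these libraries and carry no test. Of 15 intraflagellar transport genes, which move cargo in cilia, 5 fell, with IFT57 (log2 fold change -0.37) having the smallest adjusted p, and IFT140 rose (0.43); the median was -0.22. Of 10 COMMD genes, which take part in endosomal sorting, 3 fell, COMMD10 (-0.56), COMMD9 (-0.32) and COMMD6 (-0.26). Of the 10 COP9 signalosome genes tested, 4 fell and 2 rose. TAF15 (0.51) and EWSR1 (0.33), RNA-binding proteins related in function to hnRNPs, rose.

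Near-identical gene copies also stood out. Of 5 ZNG1 genes 4 fell, ZNG1A (-0.63), ZNG1B (-0.60), ZNG1E (-0.60) and ZNG1F (-0.39), and of 12 NBPF genes 4 rose. Of 4 HNRNPA1 copies 3 fell, HNRNPA1L3 (-1.43), HNRNPA1P10 (-1.16) and HNRNPA1P7 (-1.11). Reads of such copies can be split or exchanged between them, so these values are uncertain.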
